A study of Homo sapiens with 4 samples.

Results

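The IL20 cytokine subfamily and its receptor chains were followed in LCC9 cells treated with a compound called A7. The set holds 7 genes, namely the cytokines IL19, IL20 and IL24 and the receptor chains IL20RA, IL20RB, IL22RA1 and IL10RB. They were taken by symbol from the 23605 gene symbols of the expression tables, and all 7 were listed. The set was put together after a lower level of IL20 with A7 had been seen in these same libraries. Its A7 values are therefore given as a description, with their errors and no p-value. The 95% intervals given with them are not corrected for this choice and are not read as tests. Whether its genes were among those called in the fit over all genes is stated once, and nothing is read from it.

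LCC9 is an established breast cancer line of the MCF-7 lineage that resists tamoxifen, and the labels give it a wild-type, positive estrogen receptor alpha. All cells grew in medium free of phenol red with 5% charcoal-stripped serum, which holds little steroid hormone. They received vehicle (DMSO) or A7, labelled a BRCA1 mimetic after the tumour suppressor, and were harvested 24 h later. No genetic change separates the groups, and each group has 2 libraries of the 1 line. The sources used here do not say whether libraries of 1 group are separate cultures, so errors and p-values cover the spread between these libraries, which may be technical.

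IL19, IL20 and IL24 are small secreted proteins of the IL10 family. Their receptors pair a ligand-binding chain with a shared chain: IL20RA with IL20RB binds all of them, and IL22RA1 with IL20RB binds IL20 and IL24. IL10RB is the common partner chain of the receptors for IL10, IL22, IL26 and the lambda interferons, and is not part of either IL20 receptor. Receptor binding activates JAK kinases and STAT factors, chiefly STAT3. The pathway is best known in skin, where myeloid cells and keratinocytes make the cytokines and keratinocytes respond, and IL24 is also known for its action on tumour cells.

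The cytokine genes lie side by side on the long arm of chromosome 1, in the order IL10, IL19, IL20 and IL24. The promoters of IL20 and IL24 are shown because these were the 2 cytokines whose values did not overlap between the groups. Each line holds the 250 bases before a RefSeq start site (build GRCh38.p14, plus strand, at chr1:206863315-206863564 for IL20 and chr1:206897193-206897442 for IL24). The table has a further IL20 start downstream of the one shown, and which start LCC9 cells use was not measured. Capitals mark motif matches, which are a TATA box in IL20 and an estrogen response element half-site in IL24.
IL20 start 1: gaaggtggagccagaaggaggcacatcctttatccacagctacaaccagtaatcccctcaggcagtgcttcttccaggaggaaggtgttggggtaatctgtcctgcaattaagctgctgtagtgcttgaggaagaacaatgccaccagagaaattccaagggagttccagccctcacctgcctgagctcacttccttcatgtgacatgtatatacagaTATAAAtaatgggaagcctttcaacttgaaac
IL24 start 1: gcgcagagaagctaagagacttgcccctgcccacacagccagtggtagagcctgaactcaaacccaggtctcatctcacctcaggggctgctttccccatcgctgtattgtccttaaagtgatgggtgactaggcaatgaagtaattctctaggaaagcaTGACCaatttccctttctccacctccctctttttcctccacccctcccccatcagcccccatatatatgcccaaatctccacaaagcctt

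Motifs were searched on both strands. They were the palindromic estrogen response element, its half-site (GGTCA, which is contained in the full element) and the NF-kB motif. The others were the STAT-binding GAS motif (TTCNNNGAA), the AP-1 motif (TGANTCA) and the TATA box (TATAAA). The series title names the estrogen receptor and NF-kB, and the cytokines signal through STAT factors. The AP-1 motif and the TATA box were added without such a reason. All 7 genes had a promoter entry, with 10 start sites in all. No window of the set held a full estrogen response element, which was found in 0.0399% of the 35116 RefSeq windows of the same length. The half-site was found in 4 of the 10 windows, at 1 start each of IL19 and IL24 and at both starts of IL20RA, and it occurs in 32.6% of all windows. The NF-kB motif was found in 1 window, that of IL22RA1, against 9.96% of all windows. Of the 2 IL20 windows, the upstream one held the TATA box at bases -32 to -27 before the start and the downstream one held none of the 6 motifs. A TATA box stood at the same place before the upstream start of IL20RA, and 10.7% of all windows hold one. The AP-1 pattern as searched, with any base at N, was in a window of IL19 (TGACTCA) and in that of IL22RA1 (TGAATCA). The GAS motif was in the other window of IL19. Both patterns occur in 6.57% of all windows. These are matches of letters and not measured binding.

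**Figure D1:**
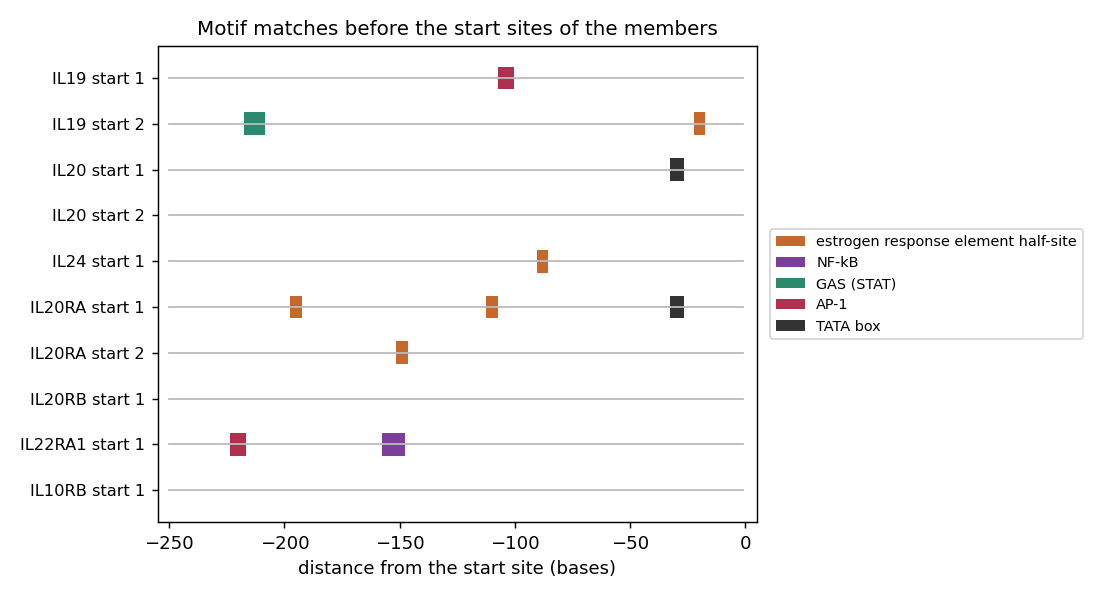
Motif matches in the 250 bases before the 10 RefSeq start sites of the 7 genes. The horizontal axis is the distance from the start site in bases, and each coloured block spans 1 match. The upstream IL20 start has a TATA box, the downstream IL20 start has no block, and 1 NF-kB block stands before IL22RA1.

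Expression is given in FPKM, the authors' count of fragments per gene corrected for transcript length and library size, so levels of different genes can be compared. Scaled FPKM are these values divided by a factor per library, the median ratio to the geometric mean of all 4, with factors between 0.9899 and 1.0196. No counts came with the tables. The lowest values gave rough depths of 2200000 to 4200000 fragments, higher in the A7 libraries (relative depths of 1.846 and 1.378, against 1.0 and 0.975 with vehicle). The error of these depths was not measured, and all fragment numbers below depend on them. The 8 epithelial markers fixed for the line, among them KRT8, KRT18, EPCAM and ESR1, were all detected, with a summed FPKM of 772.5 to 1142 per library. Of 8 leukocyte markers 6 were listed at 0 in every library, and CD68 made up most of the sum of 4.649 to 5.243. Of 8 keratinocyte markers 3, including KRT5 and KRT14, were listed at 0 throughout (sum 4.041 to 6.736). The 8 markers of fibroblasts and endothelium summed to 0.5122 and 0.5241 with vehicle and to 10.95 and 1.05 with A7. The high value in A7 replicate 1 came mostly from DCN, a matrix proteoglycan.

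IL20 was by far the most abundant of the set. Vehicle libraries held 110.1 and 130.9 FPKM of it, and A7 libraries 52.95 and 56.76 FPKM. Both A7 libraries lay below both vehicle libraries, and the gap between the groups was wider than the spread within either. After scaling the vehicle mean was 119.4 ± 13.61 and the A7 mean 54.58 ± 1.535 (SD, n = 2 each), a 2.19-fold lower level after treatment. In RNA from whole cultures, fewer cells that express IL20 and less IL20 RNA per cell cannot be told apart. The fitted difference, A7 minus vehicle on log2(scaled FPKM + 1), was -1.11 (SE 0.141), with a 95% interval of -1.46 to -0.76. Ranked by level among all symbols, IL20 held places 681 and 643 with vehicle and places 1043 and 1060 after A7.

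The IL20 values rest on roughly 292 and 338 fragments in the vehicle libraries and on 259 and 207 in the A7 libraries, estimated from the depth and the median length of its protein-coding transcripts in GENCODE 29. The estimated IL20 fragments were fewer in the A7 libraries although these were deeper. Such estimates, here and below, are FPKM multiplied by length and depth, so they are no evidence apart from the FPKM. The relative depths of vehicle replicate 2, A7 replicate 1 and A7 replicate 2 rest on 21, 23 and 14 genes. Per unit of depth the ratio of A7 to vehicle was 0.453, with a 95% counting interval (exact binomial) of 0.401 to 0.512. This interval covers counting error only and leaves out the spread between cultures and the error of the estimated depths.

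IL24 reached 3.808 and 3.987 FPKM in the vehicle libraries, against 2.271 and 1.348 FPKM after A7. The vehicle libraries were close to each other, the A7 libraries were spread, and the groups did not overlap. Scaled, it averaged 3.865 ± 0.094 and 1.808 ± 0.688 (SD, n = 2 each), a 2.14-fold lower mean after A7. The log2 difference was -0.81 (SE 0.236, 95% interval -1.40 to -0.23). An estimated 28 fragments (vehicle) and 23 fragments (A7) stand behind IL24. Whether reads of its neighbour gene FAIM3 are among them was not tested, and no step that keeps strand is named. The depth-corrected ratio of A7 to vehicle was 0.503, and its counting interval ran from 0.277 to 0.906. The ratio of IL20 to IL24 was 28.9 and 32.8 with vehicle, against 23.3 and 42.1 after A7, so the vehicle values lay inside the range of the A7 values.

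IL19 did not separate the groups. Its vehicle values were 3.575 and 1.365 FPKM, and its A7 values 0.967 and 1.597 FPKM. Vehicle replicate 1 was high, and vehicle replicate 2 lay between the A7 libraries. The scaled means were 2.457 ± 1.57 and 1.272 ± 0.417 (SD, n = 2 each), and the log2 difference was -0.54 (SE 0.362, 95% interval -1.43 to 0.35). The difference rested on vehicle replicate 1: it was -0.06 without that library and -1.02 without vehicle replicate 2. IL19 rests on an estimated 17 fragments (vehicle) and 13 fragments (A7). Its depth-corrected ratio of A7 to vehicle was 0.468, with a counting interval of 0.209 to 1.02.

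The levels of IL24 and IL19 could not be put in a firm order, since vehicle replicate 1 listed 3.808 and 3.575 FPKM for them and A7 replicate 2 listed 1.348 and 1.597 FPKM. IL20 made up 93.7% and 96.1% of the summed FPKM of the 3 cytokines with vehicle, and 94.2% and 95.1% with A7. The share of IL20 was thus alike in the 4 libraries. The sum of the 3 cytokines was 117.5 and 136.2 FPKM with vehicle and 56.19 and 59.70 FPKM with A7. A share set by IL20 does not show whether IL24 and IL19 kept their proportion to it. The ratio of IL20 to IL19 was 30.8 and 95.9 with vehicle, and 54.7 and 35.5 with A7.

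**Figure D2:**
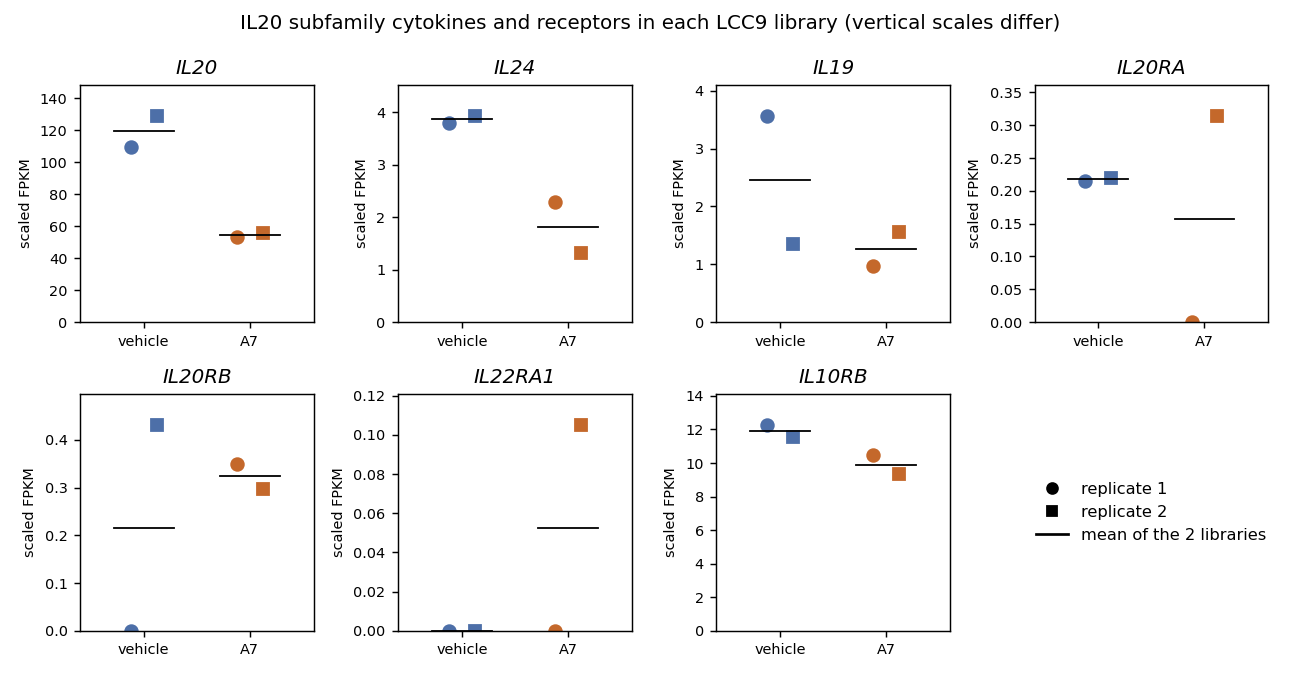
Scaled FPKM of the 7 genes in each library, with vertical scales that differ between panels and start at 0. Circles are replicate 1, squares replicate 2, and bars the mean of 2 libraries. For IL20 both A7 points (53.49 and 55.66) lie below both vehicle points (109.8 and 129.0), whereas the vehicle and A7 points of IL19 are interleaved and IL20RA, IL20RB and IL22RA1 stay below 0.5.

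The 3 chains that make up the receptors for these cytokines were near the limit of detection. IL20RA, the ligand-binding chain shared by all 3 cytokines, had 0.216 and 0.222 FPKM in the vehicle libraries, and 0 and 0.320 FPKM after A7. IL20RB, the chain common to both receptor types, had 0 and 0.438 FPKM in the vehicle libraries, and 0.346 and 0.304 FPKM after A7. IL22RA1, the alternative ligand-binding chain, was listed at 0 in 3 libraries and at 0.107 FPKM in A7 replicate 2. In no library did a chain exceed about 3 estimated fragments, the groups overlapped for each, and a change with A7 was not detectable at this depth. The summed FPKM of the 3 chains was 0.216 and 0.660 with vehicle and 0.346 and 0.731 with A7, against 56.19 or more for the 3 cytokines in every library.

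IL10RB was the 1 receptor chain of the set with a clear level. Vehicle libraries held 12.32 and 11.69 FPKM, and A7 libraries 10.37 and 9.523 FPKM. Both A7 libraries lay below both vehicle libraries, by less than the distance seen for IL20. The depth-corrected ratio of A7 to vehicle was 0.83 for IL10RB, with a counting interval of 0.642 to 1.08. The scaled means were 11.91 ± 0.538 and 9.906 ± 0.80 (SD, n = 2 each), and the log2 difference was -0.24 (SE 0.157, 95% interval -0.63 to 0.14). With FPKM rescaled to a fixed sum per library (TPM) the log2 difference was -0.04. Relative to the median of all tested genes it was -0.21 with TPM and -0.24 in the main setting.

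Of the 7 genes 4, namely IL20, IL24, IL19 and IL10RB, reached the mean of 1 FPKM needed for the fit over all genes, and the other 3 did not. In that fit (limma, 8952 genes, Benjamini-Hochberg adjusted p under 0.05) 2 genes were called, 0.0223% of those tested, and neither belongs to the set. Groups did not overlap, with lower values in A7, for IL20, IL24 and IL10RB, and for 18.6% of all tested genes. Groups without overlap and a mean at least 2-fold lower were found for IL20 and IL24, and for 1.26% of all tested genes. Since the set was chosen on this contrast, nothing is read from these shares. IL20 and IL24, at 2.19-fold and 2.14-fold, are just inside that 2-fold limit, and IL19, at 1.93-fold and with overlap, is just outside.

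The scaling between libraries bears on the size of these differences. Summed FPKM was 1324082 and 1473540 with vehicle and 1189056 and 1192830 with A7, and rescaling to TPM moves the median log2 difference of all tested genes from -0.002 to 0.17. Under TPM the difference of IL20 was -0.89, which is -1.06 relative to that shift, and the difference of IL24 was -0.61, or -0.78 relative to it. The medians of gene lists given below for TPM still include this shift of all tested genes. IL20 and IL24 stayed lower with A7 under every setting tried in which they were fitted, with differences of -1.23 to -0.89 for IL20 and of -1.15 to -0.56 for IL24. Since their groups did not overlap, leaving out a library could change the size of these differences but not the sign. Without A7 replicate 1, the library with the high stromal markers, the difference of IL20 was -1.08 and that of IL24 was -1.07. Those of IL19 and IL10RB were also negative throughout. They were closest to 0 at -0.06 for IL19, without vehicle replicate 1, and at -0.04 for IL10RB, with TPM (-0.21 relative to the shift).

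**Figure D3:**
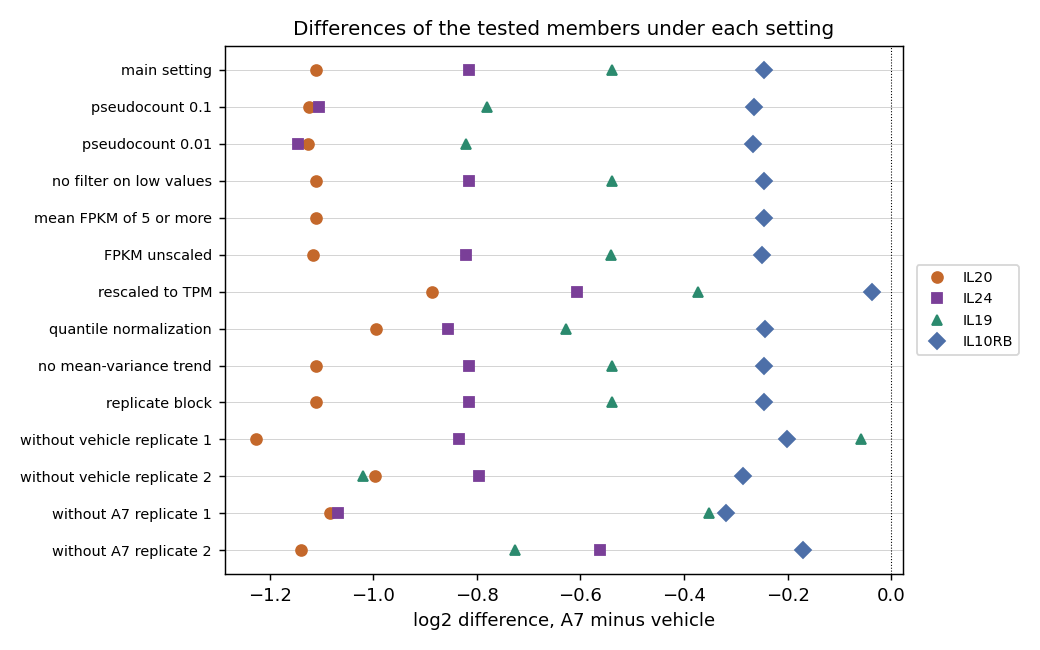
Log2 difference, A7 minus vehicle, of the 4 genes that reached the FPKM minimum, under the main setting and each alternative. IL20 lies between -1.23 and -0.89, IL24 between -1.15 and -0.56, and IL19 spreads from -1.02 to -0.06 depending on which vehicle library is left out. IL24 and IL19 have no point at the stricter FPKM minimum.

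Among cytokine genes IL20 stood out by its level. The tables list 40 secreted cytokine genes of those looked up, the 3 of the subfamily included. Of these 13 were at 0 in every library and 6 had a mean of 1 FPKM or more. MIF, macrophage migration inhibitory factor, was highest, with 162.9 and 78.32 FPKM with vehicle and 150.7 and 155.2 FPKM with A7. IL20 followed with a mean of 87.66 FPKM, ahead of TGFB3, a growth factor of the TGF-beta family, whose 4 values ran from 20.17 to 23.37 FPKM. MIF and IL20 could not be ordered with vehicle, where vehicle replicate 2 had more IL20 than MIF. With A7 MIF was above IL20 in both libraries, and IL20 was above TGFB3 in all 4. IL24 and IL19 came at places 4 and 6 by mean, on either side of TNFSF13, which ran from 1.534 to 3.296 FPKM. The tested cytokines outside the set had a median log2 difference of -0.05 (0.17 with TPM), with MIF at 0.44 (SE 0.332), TNFSF13 at -0.35 (SE 0.262) and TGFB3 at -0.05 (SE 0.147). None of these 3 passed the limma test (adjusted p of 0.834, 0.828 and 0.964).

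**Figure D4:**
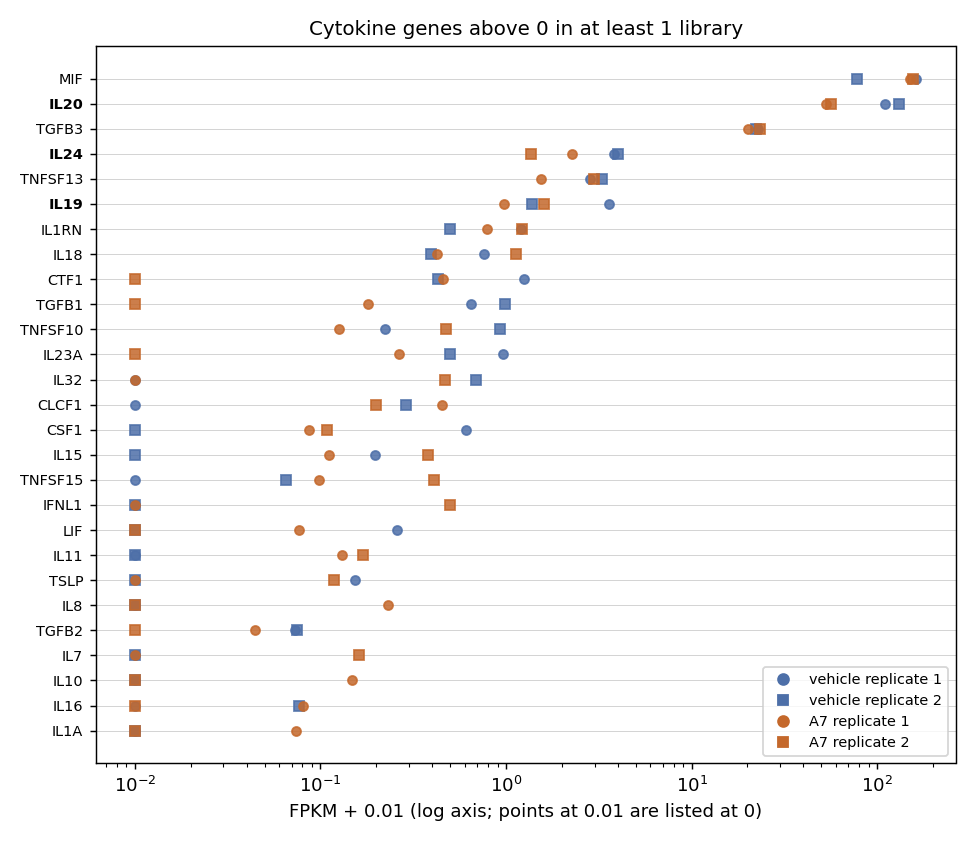
FPKM + 0.01 on a log axis for each cytokine gene above 0 in at least 1 library, ordered by mean. Blue points are vehicle and orange points A7 libraries, circles are replicate 1 and squares replicate 2. IL20 stands second, with orange points (52.95 and 56.76) left of blue points (110.1 and 130.9), and most genes below IL19 are listed at 0 in some library.

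Relatives of the set within the IL10 family were mostly silent. IL22, IL26, IFNL2 and IFNL3 and the decoy receptor gene IL22RA2 were listed at 0 in all libraries. IL10, the neighbour of IL19, was listed at 0 in 3 libraries and at 0.140 scaled FPKM in A7 replicate 1. Of 14 listed relatives 4 were tested, all of them interferon receptor chains. The A7 mean was above the vehicle mean for 3 and below it for 1. The median was 0.07, with 0.23 under TPM, 0.02 without vehicle replicate 2 and -0.17 at the stricter FPKM minimum. IFNGR1, the ligand-binding chain for interferon gamma, averaged 19.45 ± 3.19 and 15.12 ± 5.34 scaled FPKM, and IFNLR1, which pairs with IL10RB for the lambda interferons, 1.479 ± 0.128 and 2.063 ± 0.501. IFNGR2, the partner of IFNGR1, averaged 2.158 ± 0.558 and 2.341 ± 0.352. No relative passed the limma test (adjusted p of 0.822 for IFNGR1, 0.834 for IFNLR1 and 0.955 for IFNGR2).

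The genes around the cluster were looked at as well, and none was called. Of 15 genes near it in the tables, 5 reached the FPKM minimum, 2 with a higher and 3 with a lower mean in A7 (median -0.13, which became 0.08 with TPM, 0.05 with no filter and -0.02 without vehicle replicate 1). FAIM3, which lies next to IL24 and encodes the Fc receptor for IgM, had scaled values of 5.375 and 6.848 FPKM in the vehicle libraries, and 5.37 and 4.819 after A7. Its vehicle and A7 values thus nearly touched. MAPKAPK2, a kinase downstream of p38 on the other side of IL10, averaged 1.208 ± 0.124 and 0.953 ± 0.254, and the translation factor gene EIF2D 19.62 ± 2.2 and 17.75 ± 0.576. PFKFB2, a regulator of glycolysis, averaged 2.702 ± 0.325 and 3.657 ± 1.04, but it spans YOD1 on the opposite strand, and reads of the pair cannot be told apart in libraries without strand. CD55, a complement regulator, averaged 1.532 ± 0.114 and 1.849 ± 0.70. None passed the limma test (lowest adjusted p of 0.823, for PFKFB2). No test of the difference between IL20 and its neighbours was made.

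Signalling and response genes of the pathway gave no call. The lists were not split by the direction in which the pathway is known to move each gene. Their medians therefore do not measure a response. The 8 pathway lists also include the relatives, the genes near the cluster and the other cytokines described above. Over all of them 56 distinct genes were tested, 31 with a higher and 25 with a lower mean in A7. Of these 0 passed the limma test at an adjusted p under 0.05 (0.0223% of all tested genes did) and 2, PTPN2 and MCL1, had an unadjusted p under 0.05, as did 5.76% of all tested genes.

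Of 11 JAK and STAT genes 7 were tested, 5 with a higher and 2 with a lower mean (median 0.07, which became -0.06 without vehicle replicate 2, 0.23 without vehicle replicate 1 and 0.26 with TPM). STAT3, the main factor behind the IL20 receptors, had scaled values of 6.919 and 5.365 FPKM in the vehicle libraries, and 6.201 and 6.761 after A7. The A7 values of STAT3 lay inside the range of the vehicle values. STAT2, which acts in interferon signalling, averaged 9.572 ± 0.15 with vehicle and 11.99 ± 1.30 with A7 (limma adjusted p = 0.806). The kinase gene JAK3 averaged 11.43 ± 0.161 and 9.792 ± 1.71 (limma adjusted p = 0.846). JAK1, the kinase bound by the ligand-binding chains, had 3.37 and 2.714 in the vehicle libraries, and 2.486 and 3.44 after A7.

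Of 16 feedback inhibitors and phosphatases 12 were tested, 8 with a higher and 4 with a lower mean (median 0.12, which became -0.07 with the stricter FPKM minimum, 0.26 with TPM and 0.08 without vehicle replicate 2). SOCS3, the STAT3-induced inhibitor of JAK kinases, had scaled values of 0.838 and 0.848 FPKM in the vehicle libraries, and 1.482 and 1.004 after A7. Its log2 difference was 0.275 (SE 0.238, limma adjusted p = 0.85). PTPN2, a phosphatase that acts on JAK and STAT proteins, averaged 15.79 ± 2.00 and 10.67 ± 1.45, with a log2 difference of -0.53 (SE 0.179, limma adjusted p = 0.806). PTPN1, a related phosphatase, averaged 1.419 ± 0.465 and 2.582 ± 0.712, and PIAS3, an inhibitor of STAT3, 3.208 ± 0.434 and 4.78 ± 1.75 (limma adjusted p = 0.806 for both). CISH, a STAT5-induced inhibitor, was named after its values were seen. It was at 0 with vehicle in both replicates, and at 0.862 and 0.469 after A7, under the FPKM minimum. The fragments behind CISH were not estimated, and nothing is read from this pattern.

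Of 18 known STAT3 target genes 11 were tested, 5 with a higher and 6 with a lower mean (median -0.07, which became 0.20 when vehicle replicate 1 was left out, 0.02 when A7 replicate 2 was, 0.12 with TPM and 0.01 after quantile normalization). MCL1, a survival factor of the BCL2 family, averaged 11.17 ± 0.669 and 16.64 ± 0.74 scaled FPKM, a log2 difference of 0.54 (SE 0.151, limma adjusted p = 0.806). VEGFA, a growth factor for blood vessels, averaged 2.608 ± 0.080 and 3.77 ± 0.907, and OSMR, the oncostatin M receptor chain, 1.157 ± 0.401 and 1.625 ± 0.004 (limma adjusted p of 0.806 and 0.844).

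The genes by which keratinocytes respond to IL20 were mostly under the FPKM minimum. Of 19 such genes 8 were listed at 0 throughout, among them KRT6A, CCL20 and LCN2, and 2 reached it and were tested. S100A8, a calcium-binding alarmin, had scaled values of 15.4 and 5.219 FPKM in the vehicle libraries, and 14.87 and 11.78 after A7, and KRT10, a keratin of differentiated epidermis, averaged 3.644 ± 0.976 and 3.833 ± 0.412. Their median log2 difference was 0.28 (0.04 without vehicle replicate 2, 0.53 without vehicle replicate 1, and -0.13 over the list with no filter), and neither passed the limma test (adjusted p of 0.855 and 0.963). S100A7, a skin alarmin of the same family, was named after its values were seen. It had 1.684 and 1.703 in the vehicle libraries and was listed at 0 after A7 in both, under the FPKM minimum on average. The fragments behind S100A7 were not estimated, and nothing is read from this pattern.

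Of 15 genes linked to IL24 action in tumour cells, mainly endoplasmic reticulum stress and cell death genes, 12 were tested, 5 with a higher and 7 with a lower mean (median -0.04, which became 0.16 with TPM, -0.11 without vehicle replicate 2 and -0.01 without A7 replicate 2). EIF2S1, the translation factor that stress kinases phosphorylate, averaged 133.1 ± 21.3 and 98.04 ± 16.9 scaled FPKM. XBP1, a transcription factor of the stress response, averaged 220.5 ± 48.0 and 173.6 ± 9.68, and the survival gene BCL2 3.401 ± 0.377 and 2.803 ± 0.024. None of them passed the limma test (adjusted p of 0.806, 0.806 and 0.856).

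**Figure D5:**
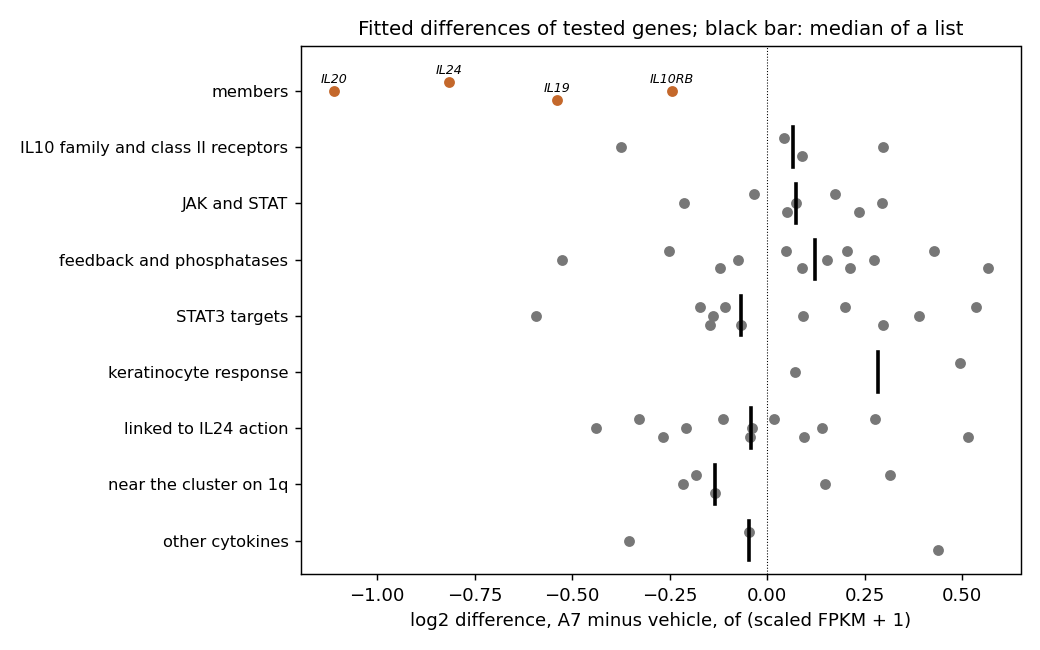
Log2 difference, A7 minus vehicle, of each tested gene of the set (orange) and of the 8 pathway lists (grey), with a black bar at the median of each list. The medians of the lists lie between -0.13 and 0.28, and IL20 (-1.11) and IL24 (-0.81) lie left of every grey point.

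The genes whose pattern over the 4 libraries was most like that of IL20 were found by the root mean square distance between log2(scaled FPKM + 1) values centred on each gene's mean. The closest was TFF1, a trefoil peptide and classical estrogen target, at a distance of 0.061, with 75730 and 79930 scaled FPKM in the vehicle libraries, and 35310 and 35080 after A7. RRAS, a small GTPase, followed at 0.081 with 3.223 and 3.292 against 0.876 and 1.081. PDZK1P1, a pseudogene that shares sequence with PDZK1, came next at 0.11, CARD8, an inflammasome regulator, stood at 0.12, and the read-through transcript NME1-NME2, whose reads are shared with its parent genes, at 0.122. IL24 came at place 43 of the tested genes with a distance of 0.257, IL10RB at 1167 and IL19 at 2680. With 4 libraries such likeness is weak, and it is given as a description. Adding 1 before the logarithm shrinks the changes of low genes such as RRAS and IL24, so the order depends on it. With 0.01 added instead, the log2 difference was -1.145 for IL24 and -1.125 for IL20. The distances were not computed again with that value.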

How the data were processed

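RNA from 4 samples of LCC9 cells was copied with a SMARTer cDNA kit and sequenced, per the labels' protocols. The authors deposited 1 table of FPKM per library, per the file headers. The submitters' processing notes name CASAVA 1.8.2, Cufflinks 2.2.1, TopHat (without a version) and build GRCh37, and give none of them a role. The annotation is not given in the sources used here, and no step that keeps strand is named. Lines whose symbol was a whole number (14 of 23619, at most 0.00539% of summed FPKM) were left out.

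Libraries were scaled by median ratios over genes whose FPKM averaged at least 1. Genes with that mean were fitted with limma 3.58.1 in R 4.3.3 on log2(scaled FPKM + 1), with a variance trend, two-sided and with Benjamini-Hochberg adjustment at 0.05. The pseudocount understates changes of low genes. Depth was estimated from the lowest values of genes with 1 GENCODE 29 transcript. Transcript lengths (GENCODE 29) and promoters (RefSeq) are of GRCh38 and were joined by symbol only. The genes, the 8 pathway lists, the marker lists and the tests were chosen with earlier results of these data known. Named were the 7 genes, up to 3 tested genes of each list with the smallest p, the 3 most abundant other cytokines, genes near the cluster over the FPKM minimum and the 5 patterns nearest to IL20. Genes such as STAT3, JAK1 and SOCS3, and those at 0, were named outside this rule. An item that the rule would name is not reported here.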

Additional observations from a re-analysis of the deposited data

How the results depend on the processing

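Over the 13 alternatives the pathway lists had 0 genes past the threshold, and the differences of IL20, IL24, IL19 and IL10RB kept their sign wherever they were fitted. For IL20, IL24 and IL10RB, whose groups did not overlap, leaving out a library could not turn the sign. The FPKM minimum, the variance trend and the replicate block do not alter the difference itself. The kept sign is therefore no support for a lower level. IL20 moved by more than the replicate spread only with TPM (-0.89), and lay between -1.23 and -0.996 when 1 library was left out. With the replicate block it was -1.11, a value that the balanced design holds fixed. The replicate numbers are not stated to mark shared cultures, and same-numbered libraries hardly deviated together (r = 0.091 across 8952 genes, which are not independent).

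Over all genes 1 was higher and 1 lower in the main setting. There were 0 higher without the variance trend, with no filter or with the replicate block, and 0 lower with no filter, with the replicate block, or with a pseudocount of 0.1 or 0.01. Lower genes numbered 2 with TPM, 2 after quantile normalization and 3 at a mean FPKM of 5 or more. Leaving out 1 library gave 1 to 10 higher and 0 to 7 lower genes: leaving out vehicle replicate 1 gave 1 and 6, vehicle replicate 2 gave 2 and 7, A7 replicate 1 gave 10 and 0, and A7 replicate 2 gave 9 and 2. Each such fit has 1 library in an arm, which is assumed to vary like the other group, so these counts are not comparable with those of 2 against 2. The cause was not tested. IL20 stayed second among the cytokine genes with unscaled FPKM. Depth limits IL20RA, IL20RB and IL22RA1, which have at most about 3 estimated fragments per library.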
